A study of Homo sapiens with 8 samples.

Results

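NCI-H1688 is an established human line, labelled small cell lung cancer, lung epithelial cell and wild type. The 2 libraries described here are those labelled as control short hairpin RNA (shRNA) in that line, replicates 1 and 2, taken by their labels from 8 libraries in all. The study set control shRNA against an shRNA to KLF9, a zinc-finger transcription factor, in NCI-H1688 and in a second small cell line, NCI-H146, with 2 libraries in each of 4 groups. Both lines had been transduced with lentivirus and selected with puromycin for 2 weeks into stable lines, in RPMI medium with fetal bovine serum, so the control cells had been through both steps as well. Poly(A) RNA was sequenced, and the values for NCI-H1688 were deposited as TPM (an abundance scaled by transcript length and library total), so that levels can be set side by side between genes within a library.

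The gene targeted elsewhere in the study went against the labels. KLF9 was at 0.298 TPM in control replicate 1 and 0.644 TPM in replicate 2. Both values were low, from about 22 and 50 reads, and differed 2.16-fold from each other. The KLF9 shRNA libraries of the same line held more KLF9, 1.95 TPM in replicate 1 and 1.60 TPM in replicate 2. The lower pair was therefore the one labelled control, and the 2 libraries are called "the libraries labelled control" here. Protein-coding genes above 0 numbered 15152 and 15191, and mitochondrially encoded genes held 15.4% and 14.7% of the TPM. The deposited columns summed to 845502 and 885808. Pearson's r of log2(TPM + 1) between the libraries was 0.996 across 19771 protein-coding genes, which are not independent replicates. Of the 9549 genes that averaged 5 TPM or more, 33 (0.346%) were apart by 2-fold or more. The labels do not say whether the libraries came from separate cultures, so the SD given below measures the spread between these 2 libraries. With 1 group of 2 libraries there was no test, and levels, ranks and counts are descriptions. In each gene list the 6 highest members were picked by rule, with the 4 markers, the small cell subtype factors, CHGA, SYP, INSM1 and NCAM1. Genes named because they were the most abundant of all, differed most between the libraries or lay nearest to 1 TPM are introduced as such. Every other gene was chosen after its values were seen. The 20 gene lists were themselves chosen with earlier results of these data known, and the basal list holds the 4 markers. Counts and medians of the lists therefore describe chosen genes and are no independent support.

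Basal cells of stratified and pseudostratified epithelium sit on the basement membrane, hold a cytoskeleton of the keratins KRT5 and KRT14, and anchor it through hemidesmosomes to laminin. The transcription factor TP63 maintains that state and, in the airway, marks the cells that renew the lining. Small cell lung cancer is most often a neuroendocrine tumour, with dense-core granules and synaptic vesicle proteins, while a minority lacks that programme and is grouped by POU2F3 or YAP1.

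Basal epithelial genes stood high in the libraries labelled control. S100A2, a calcium-binding protein of basal keratinocytes and a known target of TP63, was measured at 3222 and 3527 TPM, or 3374 ± 216 TPM (mean ± SD, n = 2), rank 24 of 19771 protein-coding genes. KRT17, a keratin of basal and activated epithelium, was at 2415 and 2585 TPM, or 2499.7 ± 120.0 TPM, rank 39. KRT5, the type II keratin of basal cells, was at 542 and 569 TPM, or 555 ± 19.3 TPM, rank 179. TP63 itself was at 50.3 and 41.8 TPM, or 46.1 ± 6.03 TPM, rank 2561, the lowest of the 4 markers and the 11th highest of 61 lineage transcription factor genes. In both libraries the order was the same, and the values of neighbouring markers did not overlap.

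In genome build GRCh38 (GENCODE 29), S100A2 lies on chromosome 1 at 153561108 to 153567890 on the minus strand, and KRT5 on chromosome 12 at 52514575 to 52520687 on the minus strand. KRT17 lies on chromosome 17 at 41619441 to 41624842 on the minus strand, and TP63 on chromosome 3 at 189631416 to 189897279 on the plus strand. All are protein-coding genes.

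The promoters of the highest marker, of the basal keratin KRT5 and of F3, the gene of tissue factor and one of the highest surface genes, are shown as examples of genes with high transcript levels. KRT17, which was above KRT5, had no promoter window, nor had KRT14 and KRT18. Each sequence runs from 250 bases before to 50 bases after a RefSeq start (GRCh38.p14, minus strand, printed 5′ to 3′). Capitals mark matches, on either strand, to TGANTCA, the core of an AP-1 site, and to TATAAA, the TATA box. The S100A2 window is chr1:153565795-153566094, the more upstream of its 2 windows. The KRT5 window is chr12:52520345-52520644, and the F3 window is chr1:94541710-94542009.
S100A2: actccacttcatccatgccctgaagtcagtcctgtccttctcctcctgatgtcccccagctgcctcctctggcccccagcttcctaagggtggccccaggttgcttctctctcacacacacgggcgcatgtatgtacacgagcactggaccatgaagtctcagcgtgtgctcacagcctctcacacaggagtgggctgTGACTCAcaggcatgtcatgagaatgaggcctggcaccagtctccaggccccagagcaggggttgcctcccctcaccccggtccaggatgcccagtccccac
KRT5: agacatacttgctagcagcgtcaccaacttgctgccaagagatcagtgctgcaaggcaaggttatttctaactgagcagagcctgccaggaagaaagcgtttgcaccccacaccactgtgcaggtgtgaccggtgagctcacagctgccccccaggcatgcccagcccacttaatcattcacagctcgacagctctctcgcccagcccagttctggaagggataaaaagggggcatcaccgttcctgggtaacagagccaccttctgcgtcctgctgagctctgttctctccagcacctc
F3: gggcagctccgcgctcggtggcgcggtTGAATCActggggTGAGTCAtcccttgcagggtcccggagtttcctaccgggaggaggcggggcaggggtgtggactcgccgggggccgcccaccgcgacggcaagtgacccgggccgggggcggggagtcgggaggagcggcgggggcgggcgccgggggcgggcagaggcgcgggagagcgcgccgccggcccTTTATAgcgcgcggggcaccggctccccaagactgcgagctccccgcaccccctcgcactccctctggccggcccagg
The S100A2 window held 1 AP-1 match, whose first base lay at -52 from the start, and no TATA box match. The KRT5 window held neither. The F3 window held AP-1 matches at -223 and -210 and a TATA box match on the other strand at -28. G or C made up 61% of the S100A2 window, 56.3% of the KRT5 window and 77.3% of the F3 window. TGANTCA was found in 7.71% of all 35116 promoter windows of that length, and TATAAA in 11.5%. Counted by gene over any window, TGANTCA was found in 8.04% of 15842 protein-coding genes, in 6 of the 15 basal list genes that had a window, in 2 of 10 simple epithelium genes and in 3 of 14 neuroendocrine genes. TATAAA was found in 12.4% of the protein-coding genes, in 3 of 15 basal genes, in 2 of 10 simple epithelium genes and in 2 of 14 neuroendocrine genes. A match is a stretch of letters and not a measured site.

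Of 22 basal epithelium genes, 21 were at 1 TPM or more in both libraries, 20 at 10 TPM or more and 12 at 100 TPM or more. Over all protein-coding genes these shares were 58.7%, 37.5% and 5.25%. The median of the list's means was 124.9 TPM, beside 4.27 TPM over all protein-coding genes. The 22 genes summed to 8212 TPM in replicate 1 and 8703 TPM in replicate 2, of which S100A2 and KRT17 made up the larger part.

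Genes of the anchoring apparatus were high. Chains of the laminin that hemidesmosomes bind in the basement membrane were measured at 324 and 332 TPM for LAMB3 and at 126 and 127 TPM for LAMA3. ITGB4, the beta chain of the hemidesmosomal integrin, was at 238 and 222 TPM, and its partner ITGA6 at 134 and 126 TPM. COL17A1, the transmembrane collagen of the hemidesmosome, was at 206 and 212 TPM, and DST, a plakin that ties keratin to it, at 97.2 and 91.3 TPM. None of these genes differed between the libraries by more than 1.5-fold.

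The remaining basal genes covered a wide range, from KRT14 down to PKP1. KRT14, the keratin partner of KRT5, was at 177 and 179 TPM. PERP, a TP63 target in desmosomes, was at 142 and 144 TPM, TRIM29 at 120.5 and 126 TPM and the serpin SERPINB5 (maspin) at 58.1 and 64.8 TPM. KRT15, a keratin of resting basal cells, was lower, at 19.9 and 20.9 TPM, and BNC1, a basal zinc-finger factor, was at 20.6 and 19.7 TPM. The basal desmosomal cadherins DSG3 and DSC3 were at 14.3 and 13.7 TPM and at 14.4 and 14.1 TPM, with overlapping values. FAT2, an atypical cadherin, was at 10.9 and 10.5 TPM, and NGFR, a neurotrophin receptor used to sort airway basal cells, was at 4.77 and 4.85 TPM. PKP1, a desmosomal plaque protein, at 0.913 and 0.671 TPM, was the single member below 1 TPM. Genes of the same kind that are not on the list were looked up afterwards. MIR205HG, host of a microRNA of stratified epithelium, was at 727 and 822 TPM, and SFN, an epithelial 14-3-3 protein, at 475 and 505 TPM. LAMA5, another laminin chain, was at 423 and 413 TPM, and the junction plaque gene JUP (plakoglobin) at 161 and 159 TPM. The plakins PLEC and DSP were at 81.7 and 75.003 TPM and at 72.4 and 65.3 TPM.

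**Figure D1:**
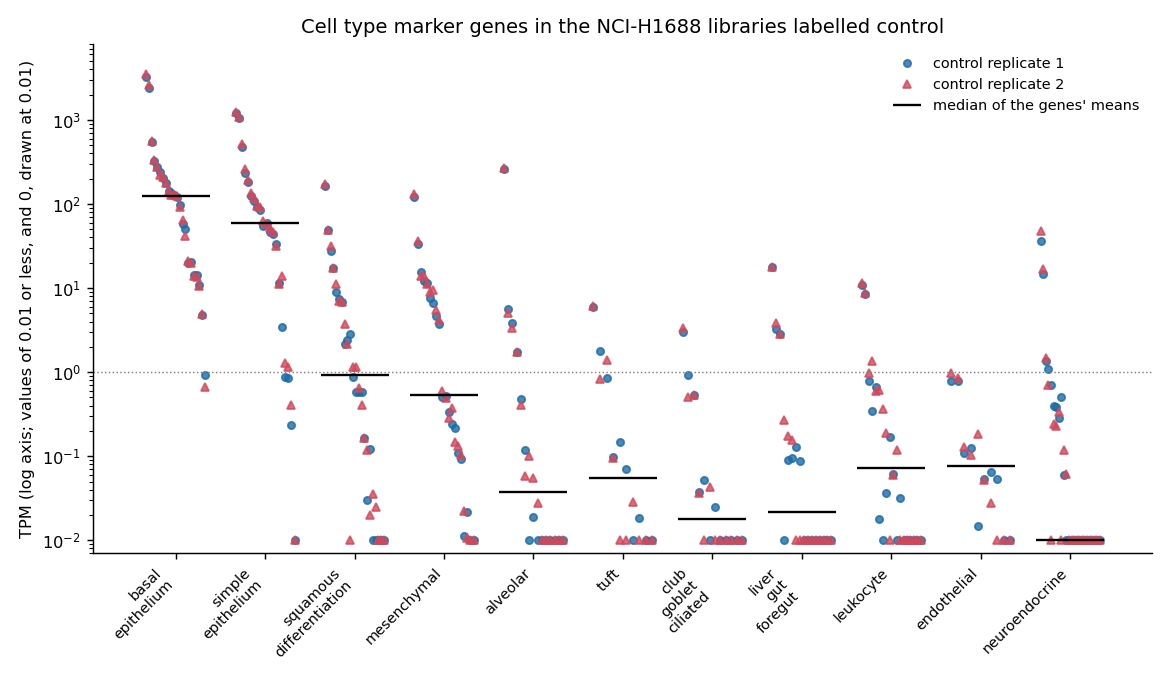
TPM (log axis) of every member of 11 cell type lists in the libraries labelled control, replicate 1 as circles and replicate 2 as triangles, genes ordered by mean within each list, with the median of the genes' means as a black line and 1 TPM as a dotted line. The basal line sits at 124.9 TPM and the simple epithelium line at 58.7 TPM, while the neuroendocrine line is at 0, drawn at 0.01.

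Genes of suprabasal and cornified squamous epithelium were lower than the basal genes. Of 22, 9 were at 1 TPM or more in both libraries, 4 at 10 TPM or more, and 3 were listed at 0 in both. Over all protein-coding genes these shares were 58.7%, 37.5% and 20.1%, so genes at 0 were no more frequent than among all genes. The median of the list was 0.934 TPM, beside 4.27 TPM over all protein-coding genes. The difference between the basal and the squamous medians within a library was 6.13 ± 0.0671 on the log2(TPM + 1) scale (SD, n = 2). CSTA, a cysteine protease inhibitor of the cornified envelope, was the highest member, at 162 and 174 TPM. KRT6A, a keratin of activated keratinocytes, was at 49.3 and 49.1 TPM, KRT10, the keratin of suprabasal skin, at 27.9 and 31.4 TPM, and SPRR1B, a cornified envelope precursor, at 17.4 and 17.5 TPM. KRT16, the partner of KRT6A, was at 8.99 and 11.3 TPM, and DSC2 at 7.41 and 6.97 TPM. IVL (involucrin), an envelope protein, was at 0.580 and 0.410 TPM, and KRT1, KRT4 and loricrin were listed at 0 in both libraries. KRT6A, KRT6B and KRT6C are near-identical, so reads could be split between them, and the values of KRT6B, at 6.89 and 6.76 TPM, and KRT6C, at 0.0301 and 0.118 TPM, are uncertain.

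Simple epithelial genes were high beside the basal ones. Of 20, 16 were at 1 TPM or more in both libraries, 15 at 10 TPM or more and 7 at 100 TPM or more, with a median of 58.7 TPM. Over all protein-coding genes these shares were 58.7%, 37.5% and 5.25%, and the median was 4.27 TPM. The paired keratins of simple epithelium, KRT8 and KRT18, were at 1202 and 1227 TPM and at 1051 and 1092 TPM, ranks 106 and 115. KRT7 was at 481 and 517 TPM and KRT19 at 236 and 259 TPM. The junction gene CLDN7 was at 182 and 192 TPM, EPCAM, an epithelial adhesion molecule, at 124 and 136 TPM, and CDH1 (E-cadherin) at 54.7 and 63.2 TPM. ESRP1, a splicing factor of epithelial cells, was at 58.8 and 58.02 TPM. The mucin MUC1 differed between the libraries, at 3.40 and 14.05 TPM, and KRT20, a keratin of gut epithelium, was listed at 0.

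The summed TPM of basal and of simple keratins were nearly equal. KRT5, KRT14, KRT15 and KRT17 summed to 3154 and 3353 TPM, and KRT7, KRT8, KRT18 and KRT19 to 2969.9 and 3095 TPM, a ratio of 1.06 and 1.08. KRT17, also a keratin of activated epithelium, made up 2415 and 2585 TPM of the basal sum, so the near-equality rests on that gene. The sum of KRT5, KRT14 and KRT15 was far below that of the simple keratins. KRT17 was 4.46 and 4.54 times KRT5, and KRT5 was 3.05 and 3.18 times KRT14. KRT8 was 1.14 and 1.12 times KRT18. Type I keratins (9 genes) exceeded type II keratins (8 genes) by 1.73 and 1.76 times, each a ratio of summed TPM. These ratios differed little between the libraries. They are means over all cells of a culture, so it cannot be told whether the same cells carried both sets, nor can fewer cells of a type be told apart from less RNA per cell in any value given here.

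The defining genes of neuroendocrine cells were at or near 0, which goes against the usual profile of the labelled tumour type. Of 24 neuroendocrine genes, 3 were at 1 TPM or more in both libraries (58.7% of all protein-coding genes were). Of the same 24, 13 were listed at 0 in both (20.1% of all protein-coding genes were), and the median of the means was 0. The basal median exceeded the neuroendocrine median by 6.97 ± 0.0202 on the log2(TPM + 1) scale (SD, n = 2). As the neuroendocrine median was 0 in both libraries, this difference is the basal median itself on that scale. UCHL1, a ubiquitin hydrolase of neurons, was at 36.7 and 48.2 TPM, ENO2, the neuronal enolase, at 14.8 and 16.9 TPM, and the vesicle calcium sensor SYT1 at 1.35 and 1.47 TPM. No other member of the list reached 1 TPM in both libraries.

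The granule and synapse markers used in pathology were lower. CHGA (chromogranin A) was at 0.510 TPM in replicate 1, about 22 reads, and was listed at 0 in replicate 2. SYP (synaptophysin) was at 0.392 and 0.243 TPM, about 30 and 19 reads. NCAM1 (CD56) was at 1.10 and 0.701 TPM. INSM1, a zinc-finger factor of neuroendocrine cells, was listed at 0 in both, where 3 reads would have given 0.0753 TPM. Such read numbers were estimated from the spacing of low values, are approximate, and cover counting error only. DLL3, a Notch ligand and a drug target in small cell lung cancer, was at 0.389 and 0.230 TPM. GRP, DDC, CALCA, SEZ6 and ELAVL4 were also listed at 0 in both libraries.

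Among the factors that name small cell lung cancer subtypes, YAP1, the Hippo pathway coactivator, stood apart. It was at 102 and 84.03 TPM, or 92.8 ± 12.5 TPM (SD, n = 2), rank 1189 (chromosome 11, 102110461 to 102233423). NEUROD1 was listed at 0 in both libraries, where 3 reads would have given 0.0636 TPM. POU2F3, the factor of tuft cells, was at 1.80 and 0.822 TPM, and ATOH1 at 0.0647 TPM in replicate 1 and 0 in replicate 2. The DNA-binding partners of YAP1, TEAD1 and TEAD4, were at 37.6 and 31.4 TPM and at 21.1 and 20.4 TPM, and its paralogue WWTR1 (TAZ) was at 14.2 and 11.9 TPM.

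NCI-H146, the other line of the study, gives a second control group, deposited as raw counts. Its CPM (counts scaled to 1000000 per library) are another unit, so they are only set beside the TPM and were not compared. KRT5, KRT17 and S100A2 had 0 counts in both NCI-H146 control libraries. TP63 was at 2.40 and 2.98 CPM, from 37 and 48 counts. KRT8 was at 149 and 117 CPM, and YAP1 at 38.1 and 48.2 CPM. Of 22 basal genes, 17 were in that table and 8 were at 1 CPM or more in both libraries. Of 24 neuroendocrine genes, 17 were in the table and 8 reached that level. Over all 14527 protein-coding genes of that table the share was 77.9%.

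Genes of other lung and non-lung cells were mostly low, where 58.7% of all protein-coding genes were at 1 TPM or more in both libraries. Of 15 alveolar genes, 4 were at 1 TPM or more in both libraries, and the high value of CAV1 (caveolin-1), 263 and 271 TPM, made up most of their sum of 275 and 282 TPM. AGER, a receptor of alveolar type I cells, was at 5.62 and 5.04 TPM. NKX2-1, the lung lineage factor that pathology knows as TTF-1, was listed at 0 in replicate 1 and at 0.101 TPM in replicate 2. The surfactant genes SFTPC and SFTPA1, and AQP5 and PDPN of type I cells, were listed at 0. Of 12 club, goblet and ciliated genes, 1 passed, the secretoglobin SCGB3A2 at 3.02 and 3.35 TPM. Of 10 tuft cell genes, 1 passed, the cyclooxygenase PTGS1 at 5.99 and 6.16 TPM.

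Of 16 liver, gut and foregut genes, 3 passed (58.7% of all protein-coding genes did). The foregut pioneer factors FOXA1 and FOXA2 were at 17.95 and 17.8 TPM and at 3.30 and 3.85 TPM, and the endoderm factor GATA6 at 2.84 and 2.82 TPM. ALB, TTR and 6 other members were listed at 0 in both libraries (20.1% of all protein-coding genes were). Of 20 mesenchymal genes, 9 passed, or 45%, not far below the 58.7% of all protein-coding genes. They were led by FN1 (fibronectin) at 123 and 133 TPM and TAGLN, an actin-binding protein, at 33.1 and 36.03 TPM. SNAI2, a zinc-finger factor shared by basal and mesenchymal cells, was at 11.5 and 11.3 TPM, TWIST2 at 7.58 and 8.996 TPM, and VIM (vimentin) at 3.76 and 4.22 TPM. ZEB1, a repressor of E-cadherin, was at 0.520 and 0.490 TPM and TWIST1 was listed at 0.

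Markers of endothelial and blood cells were at or near 0. None of 10 endothelial genes was at 1 TPM or more in both libraries (58.7% of all protein-coding genes were). Their sum was 1.99 and 2.33 TPM. The highest was CDH5 at 0.791 and 0.977 TPM. Of 18 leukocyte genes, 2 passed, CD68 at 10.7 and 11.5 TPM and LAPTM5 at 8.41 and 8.63 TPM, both lysosomal, and PTPRC (CD45), the defining leukocyte gene, was at 0.0317 TPM in replicate 1 and 0 in replicate 2.

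Among 61 lineage transcription factor genes, 47 were at 1 TPM or more in both libraries, 27 at 10 TPM or more and 2 at 100 TPM or more. Over all protein-coding genes these shares were 58.7%, 37.5% and 5.25%. The median of the list was 7.85 TPM, beside 4.27 TPM over all protein-coding genes. MYC was the highest, at 285 and 277 TPM, rank 308, while MYCL was at 2.14 and 2.24 TPM and MYCN was listed at 0. EHF, an epithelial ETS factor, was at 119.7 and 106 TPM. ID1, a dominant inhibitor of helix-loop-helix factors, was at 98.7 and 105 TPM, with values that overlapped those of YAP1.

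Factors of stratified epithelium followed. SOX15 was at 79.6 and 80.6 TPM. KLF5 was at 48.97 and 47.2 TPM, and the AP-2 factors TFAP2A and TFAP2C were at 43.7 and 49.4 TPM and at 38.2 and 36.8 TPM. TP63 overlapped with KLF5 and TFAP2A in its values. The chromatin protein HMGA2 was at 57.9 and 51.4 TPM, the hindlimb and oral epithelium factor PITX1 at 33.004 and 37.2 TPM, and SOX9 at 21.3 and 21.5 TPM. Among factors of epidermal differentiation, GRHL3 at 1.45 and 2.27 TPM and ZNF750 at 0.199 and 0.302 TPM were lower. They do not stand for all such factors, as KLF4 was at 6.71 and 6.33 TPM and EHF, described above, was far higher. The TP63 paralogue TP73 was at 0.348 and 0.378 TPM. SOX2, often amplified together with TP63 in squamous tumours, was listed at 0 in both libraries, where 3 reads would have given 0.0856 TPM, as were SOX21 and FOXE1. The other members are drawn in the plot of transcription factor genes by mean TPM.

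**Figure D2:**
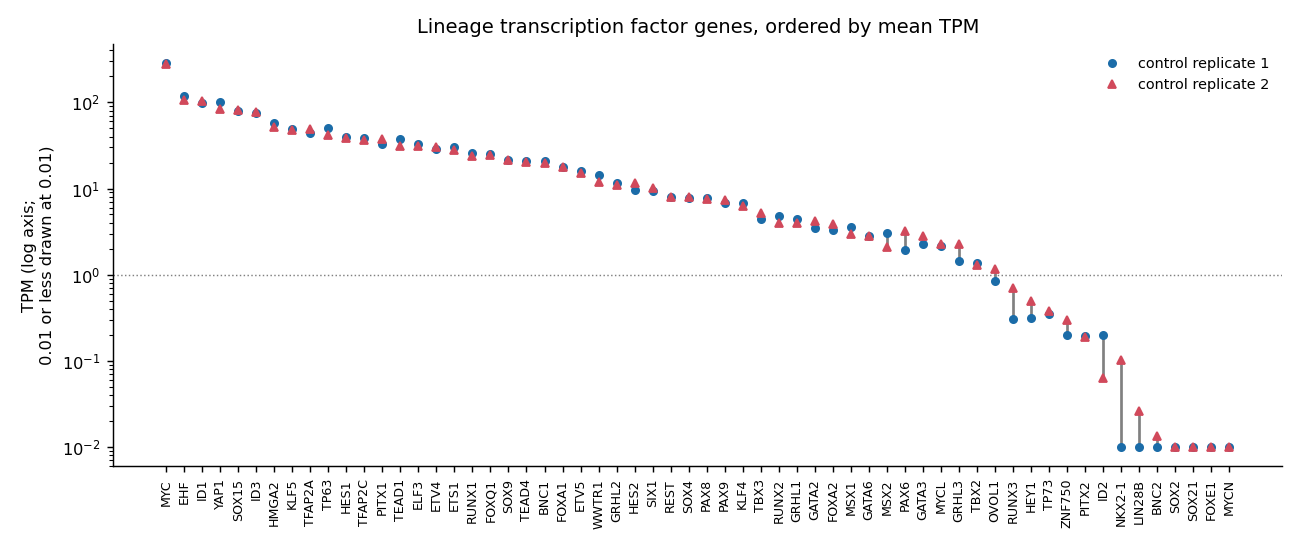
TPM (log axis) of the lineage transcription factor genes in the libraries labelled control, replicate 1 as circles and replicate 2 as triangles, joined by a grey line and ordered by mean, with 1 TPM as a dotted line. MYC leads at 285 and 277 TPM, TP63 is at 50.3 and 41.8 TPM, and SOX2, SOX21, FOXE1 and MYCN are at 0, drawn at 0.01.

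Growth factor receptors and their ligands were measured together. Of 45 receptor tyrosine kinases, 20 were at 1 TPM or more in both libraries and 1 at 100 TPM or more, a share below the 58.7% of all protein-coding genes, and the median was 0.585 TPM. DDR1, a collagen receptor of epithelial cells, was the highest, at 208 and 187 TPM. AXL, a receptor for GAS6, was at 96.2 and 90.3 TPM, EPHA2 at 89.9 and 85.2 TPM and EGFR at 79.7 and 71.9 TPM, or 75.8 ± 5.53 TPM (SD, n = 2), rank 1475. MST1R (RON) was at 63.2 and 59.2 TPM and its relative MET, the receptor for HGF, at 56.9 and 48.6 TPM. The values of AXL, EPHA2 and EGFR did not overlap, but neighbours were less than 1.5-fold apart.

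The other receptors of the EGFR family were lower. ERBB2 was at 28.98 and 28.8 TPM, ERBB3 at 13.8 and 17.8 TPM and ERBB4 at 0.203 and 0.0322 TPM. IGF1R, the insulin-like growth factor receptor, was at 37.5 and 28.1 TPM. KIT, the stem cell factor receptor, and FLT3, KDR, NTRK3 and TEK were listed at 0.

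AREG and HBEGF were above EGFR in TPM, and the other 5 EGFR ligands below it. Of 32 ligand genes, 23 were at 1 TPM or more in both libraries and 4 at 100 TPM or more, with a median of 4.93 TPM. Over all protein-coding genes these shares were 58.7% and 5.25% and the median was 4.27 TPM, so the list's median was close to the background. AREG (amphiregulin) was at 739.7 and 769 TPM, or 754 ± 20.4 TPM (SD, n = 2), rank 150, which was 9.28 and 10.7 times EGFR in TPM. HBEGF was at 139 and 138 TPM and TGFA at 51.4 and 51.3 TPM. EPGN was at 4.91 and 5.38 TPM, EREG at 3.18 and 3.35 TPM, BTC at 1.13 and 0.800 TPM and EGF at 0.0422 and 0.0594 TPM. The 7 EGFR ligands together were at 939 and 967 TPM, of which AREG held 78.8% and 79.5%. VEGFA, the angiogenic factor, was at 149.9 and 155 TPM, and GAS6, the ligand of AXL, at 150.0 and 152 TPM, so both sides of that pair were present. FGFBP1, a carrier that releases fibroblast growth factors, was at 80.1 and 90.6 TPM. HGF, the ligand of MET, was listed at 0.

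**Figure D3:**
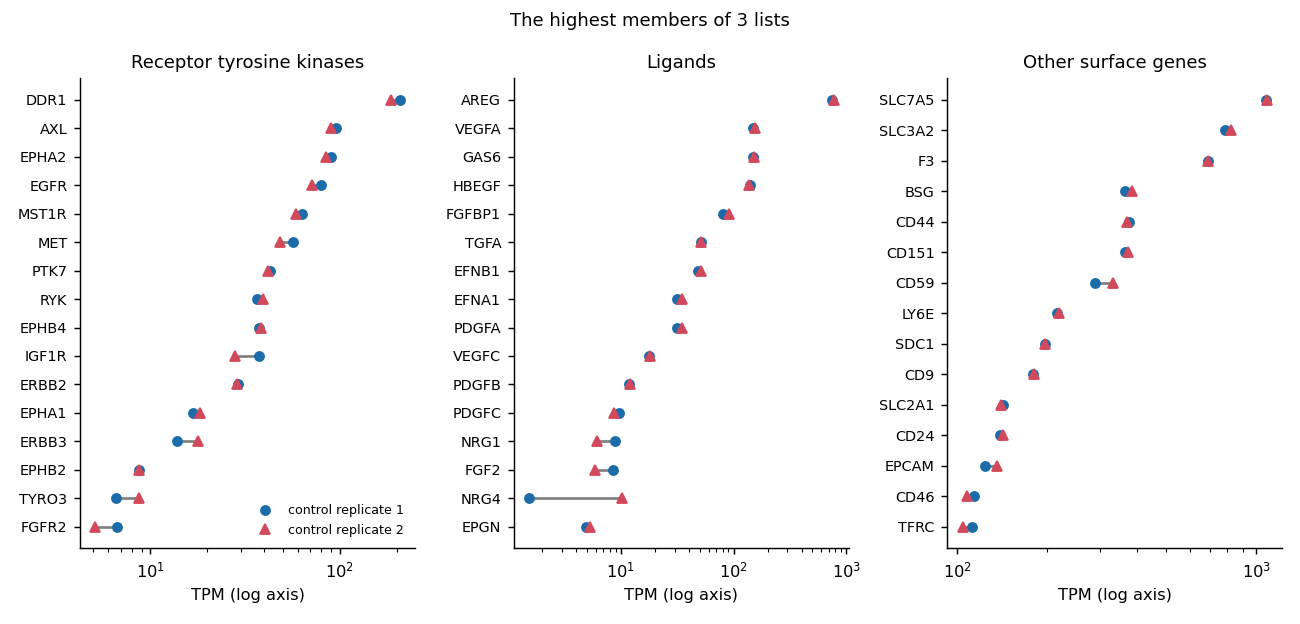
TPM (log axes) of the highest members described of the lists of receptor tyrosine kinases, their ligands and other surface genes in the libraries labelled control, replicate 1 as circles and replicate 2 as triangles joined by a grey line. DDR1, AREG (739.7 and 769 TPM) and SLC7A5 lead the 3 panels, and NRG4 is the 1 gene drawn whose symbols are far apart, at 1.54 and 10.2 TPM.

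Of 54 cytokine receptor genes, 43 were at 1 TPM or more in both libraries and 2 at 100 TPM or more, with a median of 7.09 TPM. Over all protein-coding genes 58.7% were past 1 TPM and 5.25% past 100 TPM. TNFRSF12A, the receptor for TWEAK, was at 214 and 229.9 TPM, and LTBR, the lymphotoxin beta receptor, at 115 and 112 TPM. OSMR, which binds oncostatin M, was at 65.6 and 62.3 TPM and its signalling partner IL6ST (gp130) at 26.5 and 24.2 TPM. IL4R was at 54.5 and 55.2 TPM, IFNGR1, a chain of the interferon gamma receptor, at 49.2 and 53.1 TPM, and the TRAIL receptor TNFRSF10B at 50.98 and 48.7 TPM. The transforming growth factor beta receptors TGFBR1 and TGFBR2 were at 20.4 and 18.5 TPM and at 20.7 and 19.4 TPM. TNFRSF1B, CD40 and PRLR were listed at 0 in both libraries.

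Of 36 nuclear receptor genes, 22 were at 1 TPM or more in both libraries and 1 at 100 TPM or more, with a median of 5.48 TPM. Over all protein-coding genes, 58.7% passed 1 TPM and the median was 4.27 TPM, so the list was close to the background. ESRRA, an orphan receptor of energy metabolism, was at 109.8 and 132 TPM. NR2F6 was at 60.9 and 66.97 TPM, NR4A1, an immediate early gene, at 43.4 and 51.6 TPM, and NR1H2, an oxysterol receptor, at 42.9 and 47.1 TPM. RARG, the retinoic acid receptor of stratified epithelium, was at 36.996 and 35.98 TPM, and its partner RXRA at 30.97 and 32.2 TPM. The glucocorticoid receptor NR3C1 was at 27.4 and 23.02 TPM and the vitamin D receptor VDR at 22.9 and 23.9 TPM, and these overlapped. The progesterone receptor PGR was listed at 0, and the oestrogen receptor ESR1 was at 1.02 and 1.37 TPM.

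Of 25 integrin genes, 13 were at 1 TPM or more in both libraries and 4 at 100 TPM or more, with a median of 3.09 TPM. The share past 1 TPM and the median were below those of all protein-coding genes (58.7% and 4.27 TPM), while 5.25% of all genes were past 100 TPM. ITGA3, a laminin receptor chain, was the highest, at 409.6 and 427 TPM, rank 215, and its partner ITGB1 was at 309 and 306 TPM. With ITGB4 and ITGA6 described above, the 4 genes past 100 TPM were the chains of the alpha3beta1 and alpha6beta4 laminin receptors. The collagen receptor chain ITGA2 was at 61.2 and 52.9 TPM and ITGB5 at 48.2 and 55.5 TPM, with overlapping values. ITGA4 and ITGA8 were listed at 0.

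Of 56 other surface genes, 43 were at 1 TPM or more in both libraries, 34 at 10 TPM or more and 16 at 100 TPM or more, with a median of 38.8 TPM, beside 58.7%, 37.5% and 5.25% of all protein-coding genes and their median of 4.27 TPM. The chains of a large neutral amino acid transporter led, SLC7A5 at 1081 and 1087 TPM, rank 114, and SLC3A2 at 784 and 826 TPM. F3, tissue factor, the trigger of coagulation, was at 691 and 691 TPM, or 691 ± 0.459 TPM (SD, n = 2), rank 157 (chromosome 1, 94529225 to 94541800). BSG (basigin), CD44, the hyaluronan receptor, and the tetraspanin CD151 were at 363 and 384 TPM, at 376 and 371 TPM and at 363 and 372 TPM, with overlapping values. Several members encode targets of antibodies used or tried in carcinoma. Among them CD276, an immune checkpoint ligand, was at 40.95 and 39.8 TPM. NECTIN4, an adhesion molecule, was at 16.01 and 17.9 TPM. CD274 (the ligand of PD-1) was at 17.2 and 13.2 TPM, and MSLN (mesothelin) at 10.3 and 10.7 TPM. CEACAM5 was at 0.0240 TPM in replicate 1 and 0 in replicate 2, and SEZ6, a target in neuroendocrine tumours, was listed at 0.

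Genes on the list of the RB and p53 axis were largely present. Of 21, 19 were at 1 TPM or more in both libraries and 2 were listed at 0, with a median of 32.0 TPM. Over all protein-coding genes, 58.7% were at 1 TPM or more, 20.1% were listed at 0 in both and the median was 4.27 TPM. The cyclin-dependent kinase inhibitor CDKN1A (p21) was at 213 and 219.7 TPM, CCND1 (cyclin D1) at 208 and 179 TPM and its kinase CDK4 at 144 and 156 TPM. The ubiquitin ligase gene MDM2 was at 55.3 and 68.3 TPM. NFE2L2, the oxidative stress factor, was at 55.8 and 59.7 TPM. RB1, the pocket protein commonly lost in small cell lung cancer, was at 16.9 and 18.1 TPM.

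The genes listed at 0 were CDKN2A (chromosome 9, 21967753 to 21995301), which encodes p16 and ARF, and its neighbour CDKN2B (22002903 to 22009363), which encodes p15. At these lengths 3 reads would have given 0.0480 and 0.0513 TPM. At lower coordinates MTAP (21802543 to 21937651), a methionine salvage enzyme, was at 0.0407 and 0.0278 TPM, about 9 and 6 reads, and KLHL9, farther out (21329671 to 21335380), was at 7.79 and 7.63 TPM. At higher coordinates DMRTA1 (22446841 to 22455740) was at 0.243 and 0.325 TPM. These are RNA levels, and the DNA of the region was not measured.

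S100A2 and KRT17 were among the most abundant transcripts. Of the 15 protein-coding nuclear genes with the highest mean, cytosolic ribosomal proteins left out, S100A2 was the 8th and KRT17 the 10th. The list was led by MT2A, a metallothionein, at 14341 and 16164 TPM, and by the translation factor EEF1A1 at 6987 and 7392 TPM. GAPDH was at 3604 and 3942 TPM and ACTB at 3437 and 3529.6 TPM, so that S100A2 was of the same order as these housekeeping genes. S100A6, a relative of S100A2, was the 9th, at 2596 and 2938 TPM. The other 8 were PPIA, FTH1, TMSB10, TPT1, EEF1G, NPM1, RACK1 and LDHA, which serve protein folding, iron storage, the cytoskeleton, translation and glycolysis.

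Of 492 distinct genes on the 20 lists, 233 had a mean of at least 5 TPM, and 3 of them differed between the libraries by 2-fold or more, where 0.346% of all 9549 protein-coding genes at that level did. NRG4, a ligand of ERBB4, was at 1.54 and 10.2 TPM, a ratio of 6.60. ACVR2A, an activin receptor, was at 2.16 and 10.6 TPM, a ratio of 4.92, and MUC1 was at 3.40 and 14.05 TPM, a ratio of 4.13. All of these were higher in replicate 2. The next were IL15RA at 14.6 and 9.60 TPM, IL13RA2 at 4.77 and 7.05 TPM and NRG1 at 8.91 and 6.15 TPM, each apart by about 1.5-fold. Nearest above a mean of 1 TPM were SPRR2D, OVOL1 and FGFR1, at means of 1.00, 1.01 and 1.02 TPM, and nearest below were BTC, NR2F1 and NCAM1, at 0.963, 0.927 and 0.900 TPM.

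**Figure D4:**
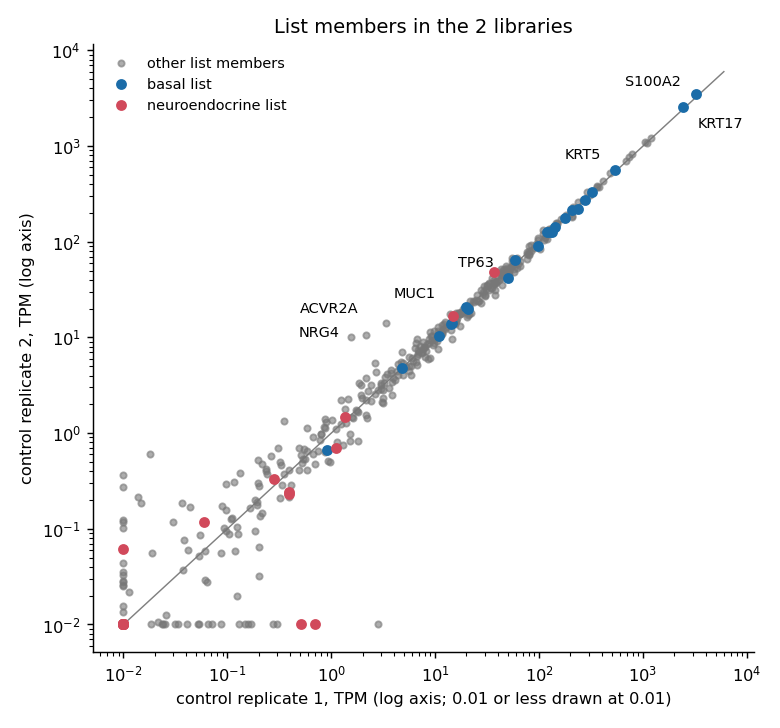
TPM of all 492 list members in replicate 1 (horizontal, log axis) and replicate 2 (vertical, log axis) of the libraries labelled control, with basal genes in blue, neuroendocrine genes in red and equality as a grey line. The 4 markers lie along the line, NRG4, ACVR2A and MUC1 lie above it, and values of 0.01 or less are drawn at 0.01.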

How the data were processed

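The 2 NCI-H1688 libraries labelled control were described from 1 table of TPM that the authors deposited, with 58434 rows. Per the submitters' processing notes, the tools were STAR 2.5.1 and DESeq2 and the build GRCh38 (hg38), with no role stated for each. The sources used here do not name the counting program, annotation or strand setting. Deposited TPM did not sum to 1000000, and no label says why. For NCI-H146 the authors deposited raw counts, from which CPM were computed over all rows of that table.

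Where rows shared a gene name (1599 rows), the one with the highest mean was kept. Of 56981 names, 56265 were in GENCODE 29, which gave gene type, coordinates and exon length. Ranks were by mean TPM among 19771 protein-coding genes, and detection meant at least 1 TPM in both libraries. Sums, ratios and differences of list medians on log2(TPM + 1) were computed within each library. TPM keep no depth: the worth of 1 read was estimated from the spacing of low values of genes with 1500 to 6000 exonic bases, after taking 200 bases off. Only 48.8% and 49.0% of those values lay within 0.1 of a whole number, so read numbers are approximate. For a gene of 2000 bases 1 read was worth 0.0367 and 0.0358 TPM. The estimate of the worth of 1 read and the handling of rows that share a name were tested on made-up data. The list counts, medians and ranks were not. Python 3.11.15 and pandas 2.3.3 were used.

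The members and the 20 gene lists were chosen with earlier results of these data known. Named genes were the 4 markers, the 6 highest of each list, the subtype factors with CHGA, SYP, INSM1 and NCAM1, the 15 most abundant genes, the 6 list members (mean of at least 5 TPM) farthest apart between the libraries, and those nearest to 1 TPM. Some genes that this rule picks are not reported here. Alternatives were rescaling to 1000000, leaving out mitochondrially encoded genes, summing rows that share a name, other thresholds, pseudocounts and summaries, and leaving out each library.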

Additional observations from a re-analysis of the deposited data

How the results depend on the processing

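Counts at 1 TPM or more were recomputed for 3 lists and for all protein-coding genes, and each stayed within 1.5 times its value. The basal count ranged from 20 to 22, the neuroendocrine from 2 to 4, the simple epithelium from 15 to 18, and that of all protein-coding genes from 9341 at a threshold of 5 TPM to 12235 at 0.5 TPM. The difference of list medians kept its sign but its size depended on the setting, on the log2 scale. For basal over neuroendocrine (6.97) it was 7.18 after rescaling to 1000000, 7.41 without mitochondrially encoded genes, 10.28 with a pseudocount of 0.1, 6.45 without members under 0.1 TPM and 5.86 with means. For basal over squamous differentiation (6.13) the same settings gave 6.24, 6.36, 7.14, 5.26 and 4.62. In the 2 libraries labelled KLF9 shRNA, an alternative added after seeing the data because KLF9 goes against the labels, the differences were 6.76 and 5.23. Without control replicate 1 or 2 they ranged from 6.96 to 6.99 and from 6.08 to 6.17. The neuroendocrine median was 0 in both control libraries, so the main value of 6.97 is the basal median on the log2(TPM + 1) scale. Its shifts with rescaling, without mitochondrially encoded genes and with the smaller pseudocount follow from that. The cause of the other shifts was not tested.

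The median rank percentile of the 4 markers was 99.45. It was 99.51 without mitochondrially encoded genes, 99.54 among all rows above 0, 99.08 among protein-coding genes of at least 1 TPM, 99.38 in the libraries labelled KLF9 shRNA, and 99.45 to 99.46 without control replicate 1 or 2. Rescaling to 1000000 multiplied the libraries by 1.18 and 1.13, which moved 108 of 143 named genes by more than 1 SD. Summing rows that share a name moved none of the 143. No paired analysis was possible because the results come from no test. With 2 libraries the SD is itself uncertain, levels under about 3 reads cannot be told from 0, and reads of overlapping or near-identical genes could be shared between them.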

Other observations

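The 2 libraries differed slightly with the length of the gene. The 9547 protein-coding genes that averaged 5 TPM or more and were above 0 in both libraries were split into 4 equal groups by exon length. In the shortest group, 192 to 3325 bases, the median log2 ratio of replicate 2 to replicate 1 was 0.10, and 75.2% of 2387 genes were higher in replicate 2. In the following groups the median was 0.05 and 0.00, and 62.6% and 50.8% were higher in replicate 2. In the longest group, 7557 to 44677 bases, the median was -0.05 and 39.9% of 2387 genes were higher in replicate 2. S100A2, with 1567 exonic bases, had a log2 ratio of 0.13, and DST, the longest basal gene, had -0.09. Not every long basal gene followed, as LAMA3, with 14678 bases, had 0.01 and TRIM29, with 10218 bases, had 0.06. These shifts are small beside the differences between gene lists, and their source was not tested.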
